A study of Mus musculus with 13 samples.

Results

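The genes described here are 9 transcripts of the mouse alpha-defensin cluster that carry provisional or defensin-related names: AY761184, Gm14851, Gm15284, Gm21002, Gm7849, Gm15292, Gm14850, Defa-rs7 and Gm15308. They were taken by symbol, 9 of the 16204 genes in the files. Their choice rested on measured values of these libraries, and which values chose each gene is not stated. Gm21002 had already been named for unequal levels in traced and non-traced cells. Levels of the 9 genes in Paneth cells are therefore given as a description, with no test of Paneth cells against other cells. Paneth cells sit at the base of the small intestinal crypt and release granules of lysozyme and alpha-defensins (cryptdins in the mouse), small peptides held in shape by disulphide bonds between cysteines, which kill bacteria. In the mouse the protease Mmp7 (matrilysin) cuts the inactive precursors. Cryptdin-related sequence (CRS) genes encode peptides that share the start of the precursor and differ in the mature peptide and its cysteine pattern.

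Single cells of the small intestine were measured by CEL-seq, a method that gives each cell a barcode and each transcript a molecular barcode and reads the 3′ end, so that a level is not scaled to gene length. All mice carried Lgr5-CreERT2, a tamoxifen-inducible Cre under the promoter of the stem cell gene Lgr5, on C57Bl6/J and were bred to a Rosa26LSL-YFP reporter, so that YFP marks cells descended from Lgr5+ cells, here called traced. Traced cells were taken at 5 days (5 libraries, with no CD24 fraction named), at 3 weeks within a CD24+ gate (1 library), and at 8 weeks both within that gate (3 libraries) and without it (1 library), CD24 being a surface protein used for sorting. Non-traced CD24+ controls came from 8 weeks (2 libraries), and 1 more library bears the label of non-traced CD24+ cells of 3 weeks. Age, sex, induction and the sequencer used for each library are not given in the labels, nor is it said which libraries came from separate mice, so p-values measure the spread between libraries, which may be technical. For 3 weeks a deposited combined table names a set with YFP and without CD24, where the labels give a non-traced CD24+ library, and that library enters no test. Libraries held 421675 to 1385266 transcripts, and 892 of 1248 barcodes had at least 3000 transcripts without spike-in RNA and were kept as cells. The 96 cell barcodes were the same in all 13 libraries, as in a plate design. The later libraries held 0.813 to 1.74 per 10000 of Xist, a marker of female cells, and no Ddx3y, a Y-linked gene, against 0 to 0.0134 of Xist and 0.197 to 0.424 of Ddx3y at 5 days.

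The 9 genes lie on chromosome 8 (mm10) and are annotated as protein-coding with 2 exons each, all values being counts over the whole gene. By sequence they fall into 2 kinds. AY761184 (chr8:21702519-21703645, minus strand), Gm14851 (chr8:21095074-21096050, minus; RefSeq Defa38) and Gm7849 (chr8:21455445-21456560, minus; RefSeq Defa42) have coding sequences of 351 bases with 11 cysteine codons, and RefSeq lists a CRS1C name for Gm14851. Their last 168 coding bases are shown because the repeated cysteine codons, in capitals, set them apart from the classical defensins (coding sequence of the annotated transcript on mm10, 5′ to 3′).
AY761184: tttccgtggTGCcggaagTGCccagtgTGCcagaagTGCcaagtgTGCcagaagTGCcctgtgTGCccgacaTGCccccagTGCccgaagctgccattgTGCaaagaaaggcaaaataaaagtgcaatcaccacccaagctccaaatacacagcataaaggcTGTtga
Gm14851: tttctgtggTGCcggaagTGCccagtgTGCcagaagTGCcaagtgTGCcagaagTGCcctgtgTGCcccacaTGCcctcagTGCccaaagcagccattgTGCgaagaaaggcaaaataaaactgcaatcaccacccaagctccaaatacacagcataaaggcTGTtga
Gm7849: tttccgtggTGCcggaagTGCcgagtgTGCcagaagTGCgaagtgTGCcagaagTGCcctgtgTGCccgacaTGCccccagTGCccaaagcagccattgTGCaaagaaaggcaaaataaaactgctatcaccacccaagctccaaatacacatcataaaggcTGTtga
The coding sequence of AY761184 is 96.9% identical to that of Gm14851 and 96.01% to that of Gm7849, and those of Gm14851 and Gm7849 are 96.3% identical. Within their exons 71.6% (AY761184) and 44.4% (Gm14851) of windows of 50 bases, and a still larger share in Gm7849, occur in no other of the 25 defensin genes compared, so reads over the whole transcript could tell them apart in part. In the last 100 bases, nearer the end that CEL-seq reads, AY761184 is 97.9% identical to Defa29, and how far their reads were told apart was not tested.

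The other 6 genes have 6 cysteine codons, the classical alpha-defensin pattern, in coding sequences of 282 or 288 bases. They are Gm15284 (chr8:21134642-21135598, plus strand; RefSeq Defa30), Defa-rs7 (chr8:21191614-21192549, plus; Defa31, with CRS4C names among its synonyms), Gm15292 (chr8:21249754-21250556, plus; Defa40), Gm21002 (chr8:21391811-21392791, plus; Defa33), Gm15308 (chr8:21529032-21530012, plus; Defa32) and Gm14850 (chr8:21565386-21566349, plus; Defa37). The last 105 coding bases of 5 of them are shown to compare the cysteine spacing, again with cysteine codons in capitals.
Gm15284: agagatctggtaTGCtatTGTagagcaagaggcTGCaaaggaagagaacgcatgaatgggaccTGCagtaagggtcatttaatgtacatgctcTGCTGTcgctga
Defa-rs7: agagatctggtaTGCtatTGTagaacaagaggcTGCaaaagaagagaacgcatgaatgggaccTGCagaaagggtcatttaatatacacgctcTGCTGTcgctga
Gm15292: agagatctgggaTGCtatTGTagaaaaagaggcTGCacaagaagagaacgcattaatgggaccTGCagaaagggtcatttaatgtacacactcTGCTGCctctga
Gm14850: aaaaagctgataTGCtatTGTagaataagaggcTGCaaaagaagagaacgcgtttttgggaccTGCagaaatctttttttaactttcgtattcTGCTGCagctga
Gm21002: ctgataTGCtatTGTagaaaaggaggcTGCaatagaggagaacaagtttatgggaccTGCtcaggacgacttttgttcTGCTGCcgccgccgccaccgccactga
Gm15308 has the same 105 bases as Gm21002. The whole coding sequences of this pair differ at 1 position.
For Gm21002, Gm15308, Gm14850 and Defa-rs7, 0% of windows of 50 bases are unique among these genes. The coding sequence of Gm15308 is 100% identical to that of Defa20, that of Gm21002 to Defa2, that of Defa-rs7 to Defa23 and that of Gm14850 to Defa36. Counts of these 4 genes depend on how reads were divided between copies, which is not given in the sources used here, and they are uncertain as values of single genes. Gm15284 (47.6% unique windows) and Gm15292 (65.5%) are better separated.

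To read the genes within Paneth cells without using any defensin, cells were called Paneth-marker cells when Lyz1, Ang4, Mmp7, Itln1, Pnliprp2 and Habp2 together reached at least 100 per 10000 transcripts. This gave 101 of 892 cells: 2, 8, 9, 2 and 4 in the 5-day libraries, 2 in the 3-week traced CD24+ library, 18, 7 and 16 in the 8-week traced CD24+ libraries, 5 in the ungated 8-week traced library, 0 in the 3-week library labelled non-traced, and 17 and 11 in the 8-week non-traced CD24+ libraries. Between 50 and 200 per 10000 lay 34 cells, 20 below and 14 above the limit. No doublet detection was run.

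Together the 9 genes made up 1021.68 to 1849.59 of every 10000 transcripts in Paneth-marker cells of the 5-day and 8-week libraries, and 7.70 to 27.9 in the other cells of the same libraries. AY761184, Gm14851 and Gm15284 held 85.4% to 98.3% of that sum. The deposited values cannot exceed 1597, the largest value that 256 molecular barcodes allow. AY761184 was the single highest of the 9 in 67 of the 101 cells, Gm15284 in 8 and Gm14851 in 2, and in 23 cells these genes tied for the highest value, in 19 of them at the ceiling. AY761184 stood at that ceiling in 40 cells, Gm14851 in 17 and Gm15284 in 13, all of them Paneth-marker cells, against 145 values at the ceiling over all genes and cells, so the highest levels of these 3 genes are underestimates. The other 6 genes were never at the ceiling, the highest single value being 1242 for Gm21002.

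**Figure D1:**
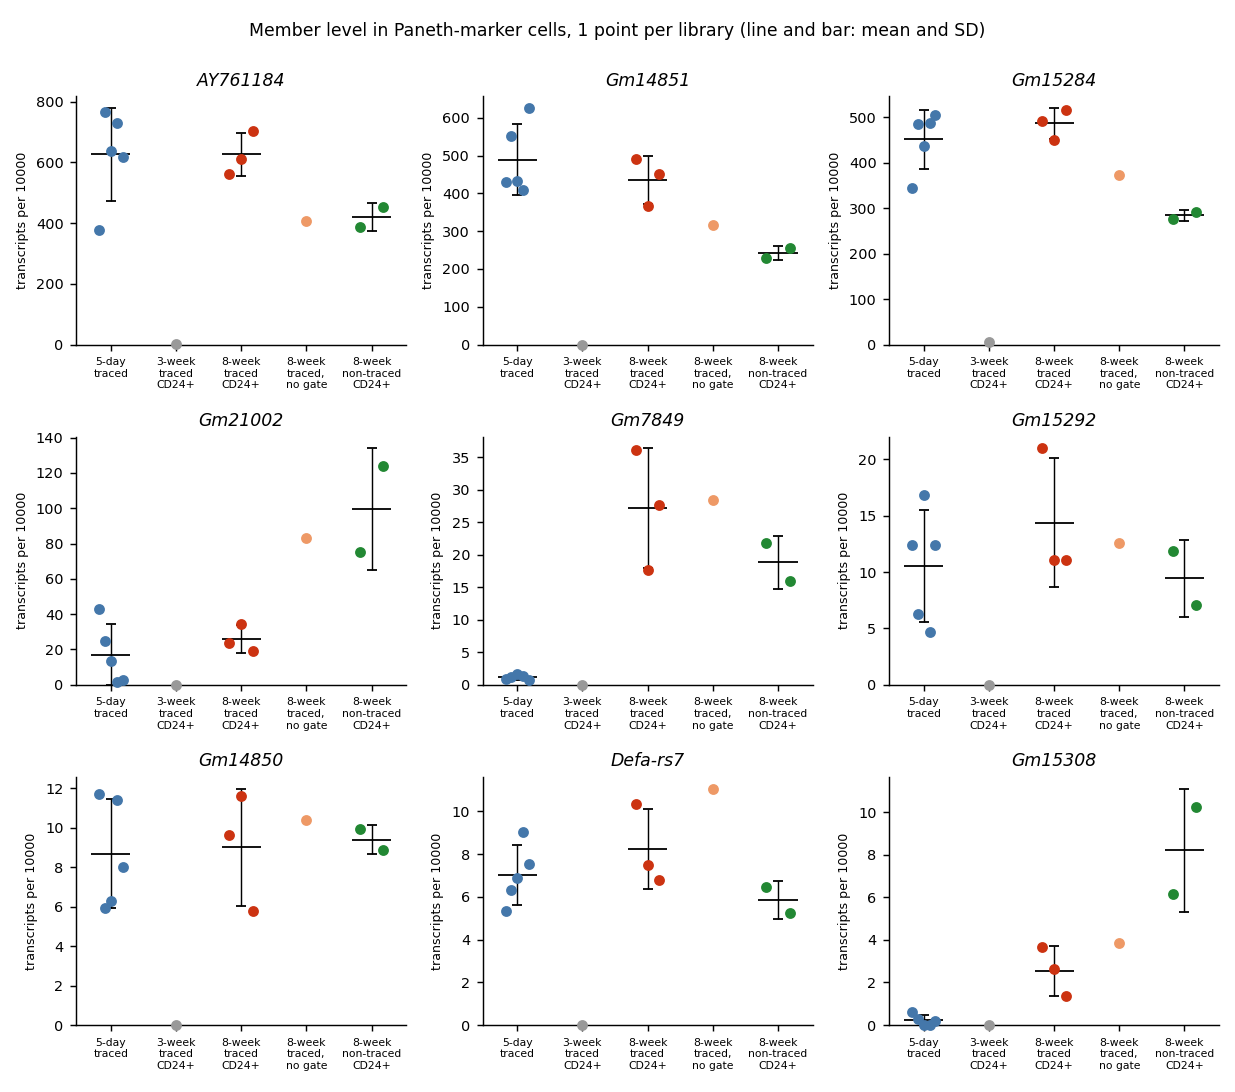
Level of each of the 9 genes in Paneth-marker cells, in transcripts per 10000 on a linear axis from 0, with 1 point per library by group and the mean and SD where a group has more than 1 library. Gm7849 and Gm15308 are near 0 in all 5-day libraries, Gm21002 is at most 34.5 in the 3 libraries of 8-week traced CD24+ cells, at 83.3 in the ungated 8-week traced library and at 75.2 and 124 in the libraries of 8-week non-traced CD24+ cells, and the 3-week traced CD24+ library (2 cells) is near 0 throughout.

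The abundant genes were AY761184 and Gm14851 of the cysteine-rich kind and the defensin Gm15284. In Paneth-marker cells AY761184 stood at 378, 767, 639, 731 and 617 per 10000 in the 5-day libraries. It stood at 563, 612 and 704 in the 8-week traced CD24+ libraries, at 405 in the ungated 8-week traced library, and at 386 and 453 in the 8-week non-traced CD24+ libraries. The 5-day range covers every 8-week value, and its lowest value comes from a library with 2 such cells.
Gm14851 stood at 430, 551, 432, 408 and 625 per 10000 in the 5-day libraries, at 490, 367 and 452 in the 8-week traced CD24+ libraries, at 315 without the gate, and at 229 and 254 in the non-traced libraries. Gm15284 stood at 345, 486, 436, 488 and 504 in the 5-day libraries, at 492, 450 and 517 in the 8-week traced CD24+ libraries, at 372 without the gate, and at 275 and 292 in the non-traced libraries. For both, each traced library of 5 days and 8 weeks exceeded both non-traced libraries of 8 weeks. In non-traced replicate 1 a single cell, at 97.9 per 10000 of each gene, held 145041 of the 463312 transcripts summed. The order AY761184, Gm15284, Gm14851 held for the means of the 8-week traced CD24+ libraries (627 ± 71.7, 487 ± 33.7 and 436 ± 63.3, SD, n = 3), where the ranges of Gm15284 (450 to 517) and Gm14851 (367 to 490) overlapped.

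The other 6 genes were lower in these cells, and their order changed with the group. In the 8-week traced CD24+ libraries the means were 27.1 ± 9.24 per 10000 for Gm7849, 25.7 ± 7.91 for Gm21002, 14.4 ± 5.71 for Gm15292, 9.01 ± 2.97 for Gm14850, 8.22 ± 1.88 for Defa-rs7 and 2.54 ± 1.15 for Gm15308 (SD, n = 3), and each neighbouring pair down to Defa-rs7 overlapped in range. In the 5-day libraries they were 17.1 ± 17.3 for Gm21002, 10.5 ± 4.97 for Gm15292, 8.68 ± 2.76 for Gm14850, 7.02 ± 1.40 for Defa-rs7, 1.19 ± 0.392 for Gm7849 and 0.218 ± 0.253 for Gm15308 (n = 5). The mean of Gm21002 there rests on single cells, 1 per library holding 62.2% to 100% of its transcripts, and its median over the 25 cells was 1.08 per 10000, against 6.32 for Defa-rs7, 5.86 for Gm15292 and 4.67 for Gm14850. In the 8-week non-traced CD24+ libraries Gm21002 led them at 99.5 ± 34.4, followed by Gm7849 at 18.9 ± 4.08, Gm15292 at 9.46 ± 3.40, Gm14850 at 9.40 ± 0.732, Gm15308 at 8.21 ± 2.89 and Defa-rs7 at 5.85 ± 0.883 (n = 2), with overlapping ranges between neighbours among the last 4. Of these 6 genes Gm15292, Gm14850 and Defa-rs7 had the narrowest ranges as a ratio of highest to lowest level. Over all 5-day and 8-week libraries Gm15292 ran from 4.70 to 20.97, Gm14850 from 5.77 to 11.7 and Defa-rs7 from 5.22 to 11.1 per 10000. Between the gated groups of 8 weeks Gm15292 and Gm14850 overlapped, while Defa-rs7 stood at 6.80 to 10.3 in traced and at 5.22 and 6.47 in non-traced CD24+ libraries. The ungated 8-week traced library had the highest Defa-rs7, at 11.1, with Gm15292 at 12.6 and Gm14850 at 10.4.

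Whether a traced Paneth cell of 8 weeks carries the same transcripts as its non-traced counterpart under the same gate was read first in the Paneth-marker cells. Gm21002 was lower in traced cells, at 23.5, 34.5 and 19.1 per 10000 against 75.2 and 124 in non-traced cells. Its near-identical partner Gm15308 had 3.65, 2.62 and 1.35 per 10000 in traced and 6.16 and 10.3 in non-traced cells. The groups did not overlap for either gene. For Gm21002 the log2 fold change was -1.80 (SE 0.28, n = 3 and 2; edgeR quasi-likelihood test, Benjamini-Hochberg adjusted p = 0.0138), and it was the single gene of 3441 past the threshold, 0.0291% of those tested. With no adjustment 189 genes had a p under 0.05, and DESeq2 called 11. For Gm15308 the change was -1.50 (SE 0.33, adjusted p = 0.139). Gm15308 was called under 7 of 18 alternatives, of which 1 left out cells by their Gm21002 level and says nothing of this pair. Among the 7 were the fits without traced replicate 1 (-1.94, adjusted p = 0.0329) and without non-traced replicate 1 (-1.91), the latter with 1 non-traced library left. With 1 library left out the change of Gm15308 ran from -1.94 to -0.95, and not all of these fits called it. Counts of Gm15308, with 0% unique windows of 50 bases, are not independent of those of Gm21002. Since Gm21002 was chosen with its lower level in traced cells already known, its call restates what was known.
The call was lost with whole numbers of molecular barcodes in place of collision-corrected values (-0.98, adjusted p = 0.351), without traced replicate 3 (-1.63, adjusted p = 0.53) and when Gm21002, Gm15308 and Defa20 were summed as 1 gene (-1.37, adjusted p = 0.15), the last an alternative chosen after the values were seen. The summed level of those 3 genes was 66.2, 125 and 78.95 per 10000 in traced and 190 and 325 in non-traced cells.

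Fewer traced than non-traced cells carried much Gm21002. At least 100 per 10000 was found in 1 of 18, 1 of 7 and 1 of 16 traced cells, against 5 of 17 and 4 of 11 non-traced cells. The median cell had 2.04, 2.60 and 1.95 per 10000 in the traced libraries and 13.01 and 23.3 in the non-traced ones. In traced replicate 1 a single cell held 80.8% of the Gm21002 transcripts, in replicate 2 71.6% and in replicate 3 36.5%, against 35.6% and 34.5% in the non-traced libraries. Among the 5 cells of the ungated 8-week traced library 1 held 99.7% of the Gm21002 transcripts, and the level over its 5 cells was 83.3 per 10000.

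**Figure D2:**
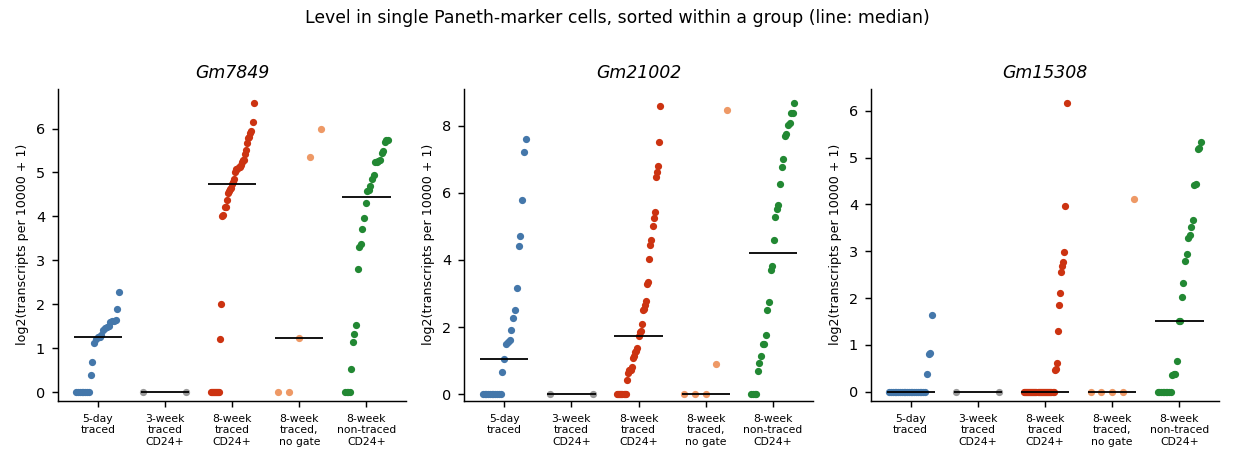
Level of Gm7849, Gm21002 and Gm15308 in each Paneth-marker cell as log2(transcripts per 10000 + 1), cells sorted from low to high within a group and the median drawn as a line. No 5-day cell exceeds 3.85 per 10000 of Gm7849, and 11 of 41 traced against 16 of 28 non-traced CD24+ cells of 8 weeks reach 10 per 10000 of Gm21002.

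The other 7 genes were not called in this comparison, where no gene of the 3441 was called higher (0%). All 3 abundant genes had higher values in each traced CD24+ than in each non-traced library: the log2 fold change was 1.03 for Gm14851 (SE 0.26, adjusted p = 0.271), 0.96 for Gm15284 (SE 0.25, adjusted p = 0.301) and 0.75 for AY761184 (SE 0.26, adjusted p = 0.519). In non-traced replicate 1, 1 cell held 145041 of the 463312 transcripts of the Paneth-marker cells. It had 110 per 10000 of AY761184, a value at the ceiling, and 97.9 each of Gm14851 and Gm15284. The part of this cell in the differences was not tested. Under alternatives Gm14851 was called in 6 of 17, Gm15284 in 3 of 17 and AY761184 in 0 of 17. Leaving out non-traced replicate 2, with 1 non-traced library left, was one of those for Gm14851 (1.23). With 1 library left out the change of Gm14851 ran from 0.86 to 1.23, and not all of these fits called it. Over single cells the median of Gm14851 was 494 per 10000 in traced and 97.1 in non-traced cells, that of Gm15284 532 and 272, and that of AY761184 705 and 522. The ceiling was reached in both groups: 11, 3 and 9 traced cells against 7 and 3 non-traced cells held at least 1 of the 9 genes at the ceiling. AY761184 stood there in 20 of 41 traced and 10 of 28 non-traced cells, Gm14851 in 12 and 3 and Gm15284 in 9 and 3. The folds and medians of these 3 genes are therefore of capped values, and a capped level per 10000 depends on the depth of the cell. Gm15292 (0.82), Gm7849 (0.73), Defa-rs7 (0.69) and Gm14850 (0.11) did not pass either, with adjusted p from 0.537 to 0.996. In all, 6 of the 9 genes had groups without overlap, where 23.1% of the 3441 genes did, and the median log2 fold change was 0.73 over the 9 genes and -0.01 over all genes tested. The summed Paneth markers that chose the cells were also unequal, at 1187 to 1461 per 10000 in traced and 836 to 1023 in non-traced libraries. Goblet markers summed to 305 to 362 and 375 to 380 per 10000, and their part in the result was not tested.
Of the named alpha-defensins, 0 of 12 tested passed in either direction (median log2 fold change 0.52, against -0.01 for all genes tested), and of the Paneth granule list 0 of 15 (median 0.31). That list holds the 6 genes that chose the cells, so its median is not independent of that choice. Defa24, the highest of the named alpha-defensins, averaged 651 per 10000 in traced and 506 in non-traced cells (0.54, adjusted p = 0.892). Defa17 averaged 181 in traced and 124 in non-traced cells (0.74, adjusted p = 0.519), and Defa5 120 and 144 (-0.10, adjusted p = 0.996).

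Summed over all kept cells of the same libraries, where 8762 genes were tested, the call of Gm21002 again restates what was known when it was chosen. It stood at 6.02, 5.29 and 6.26 per 10000 in traced and 30.3 and 41.4 in non-traced CD24+ libraries (log2 fold change -2.60, SE 0.19, edgeR adjusted p = 0.000118). Gm15308 stood at 0.922, 0.413 and 0.434 in traced and 2.49 and 3.39 in non-traced libraries (-2.22, SE 0.29, adjusted p = 0.00176). These 2 of the 9 genes were lower, where lower calls made up 2.67% and higher calls 1.56% of all genes tested (4.23% together). Gm15308 has 0% unique windows of 50 bases and differs from Gm21002 at 1 coding position, so the 2 calls are not independent. Gm14850 stood at 2.45, 1.81 and 1.86 in traced and 3.96 and 2.93 in non-traced libraries (-0.75, adjusted p = 0.052), and was called without traced replicate 1 (-0.93, adjusted p = 0.0460). Gm14851 was called higher without traced replicate 2 (0.67, adjusted p = 0.0236). With 1 library left out Gm14851 ran from 0.03 to 0.67 and Gm14850 from -0.94 to -0.52, and not all of these fits called them. The other 6 had log2 fold changes from -0.09 to 0.34, and 3 of the 9 had groups without overlap, against 33.8% of all genes.
Of 12 named alpha-defensins tested Defa20 (-1.91) and Defa5 (-0.99) were lower and none was higher, and of 15 granule genes none was called. Paneth-marker cells made up 20.7%, 10.8% and 23.2% of the traced and 20.2% and 17.5% of the non-traced cells. Outside them Gm21002 stood at 0.0873, 0.0547 and 0.148 per 10000 in the other cells of the traced and 0.558 and 1.57 in those of the non-traced libraries, with at least 1 transcript in 10.6% of 180 and 55.5% of 119 cells. AY761184 in the same cells was at 9.95, 12.4 and 13.9 in traced and 10.7 and 15.8 in non-traced libraries. As a share of the level in Paneth-marker cells of the same library, Gm21002 in other cells came to 0.371%, 0.159% and 0.776% in traced and 0.742% and 1.27% in non-traced libraries, below AY761184 at 1.77%, 2.03% and 1.98% in traced and 2.78% and 3.50% in non-traced libraries.

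Between 8 weeks and 5 days of tracing the same gate was not used, so time, the CD24 gate and the sex of the mice cannot be told apart. Paneth-marker cells of the 3 8-week traced CD24+ libraries were set against those of 5-day replicates 2, 3 and 5, the ones with at least 3 such cells. Gm7849 stood at 36.1, 17.6 and 27.7 per 10000 at 8 weeks, against 1.22, 1.71 and 0.714 at 5 days. The groups were far apart, with a log2 fold change of 4.47 (SE 0.32, n = 3 each; edgeR adjusted p = 9.01e-08), a fitted 22.1-fold difference. It passed the filter on low counts through the 8-week libraries, a route that favours genes higher there. In the 5-day libraries left out of the fit it stood at 0.913 and 1.38, in the ungated 8-week traced library at 28.4, and in the 8-week non-traced CD24+ libraries at 21.7 and 15.98. All 6 libraries of 8 weeks, gated or not and traced or not, thus lay above all 5 of 5 days.
A level of at least 10 per 10000 of Gm7849 was found in 13 of 18, 5 of 7 and 12 of 16 traced CD24+ cells of 8 weeks, in 2 of 5 ungated traced cells and in 10 of 17 and 7 of 11 non-traced cells, against 0 of 25 cells at 5 days. Its transcripts numbered 16.1, 22.2 and 4.02 in the 5-day libraries fitted, so the low level there and the size of the fold rest on few counts. Per 100 transcripts of AY761184, which is 96.01% identical in coding sequence, there were 6.40, 2.88 and 3.94 of Gm7849 in the 8-week traced CD24+ libraries and 0.116 to 0.268 in the 5 libraries of 5 days. Whether any of the 5-day counts are reads of AY761184 assigned to Gm7849 was not tested.

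Gm15308 was the other gene called, at 3.65, 2.62 and 1.35 per 10000 at 8 weeks against 0.305, 0 and 0.178 at 5 days (log2 fold change 4.03, SE 0.60, edgeR adjusted p = 0.000147). The 5-day libraries held 4.02, 0 and 1.00 transcripts of it, so the size of this fold depends on the fit, and it too entered the test through the 8-week libraries. Gm21002 stood at 23.5, 34.5 and 19.1 at 8 weeks and 24.8, 13.5 and 2.75 at 5 days (0.93, SE 0.43, adjusted p = 0.102), and was called without 5-day replicate 2 (1.63, adjusted p = 0.0191), as was Gm14850 without 8-week replicate 3 (0.79, adjusted p = 0.0391). With 1 library left out Gm21002 ran from 0.46 to 1.63 (edgeR adjusted p up to 0.293) and Gm14850 from 0.30 to 0.79 (up to 0.411). Summed with Gm15308 and Defa20, Gm21002 was called higher (1.96, adjusted p = 0.00446), a call that rests on an alternative chosen after the values were seen.
The 3 abundant genes did not pass, at -0.04 for AY761184 (SE 0.19, adjusted p = 0.896), -0.24 for Gm14851 (SE 0.20, adjusted p = 0.385) and 0.09 for Gm15284 (SE 0.18, adjusted p = 0.731), with 95% intervals from -0.44 to 0.36, -0.67 to 0.19 and -0.29 to 0.48. Gm14850 (0.48), Gm15292 (0.35) and Defa-rs7 (0.33) did not pass either. At the ceiling stood AY761184 in 20 of 41 cells of 8 weeks and 7 of 21 fitted cells of 5 days, Gm14851 in 12 and 2 and Gm15284 in 9 and 0, so these folds are of capped values and their intervals do not cover what the ceiling hides. Thus 2 of 9 genes were higher, both through the filter as said, where 18.1% of the 1401 genes tested were higher and 36.4% were called in either direction. Groups did not overlap for 2 of the 9, against 47.9% of all genes. Of 12 named alpha-defensins tested 4 were higher, among them Defa20 (2.63), Defa23 (0.63) and Defa3 (0.72), and of 13 granule genes 6 were higher and 1 lower. Among the granule genes called were Ang4, Habp2, Itln1 and Mmp7, which helped to choose the cells and are therefore no result. Enterocyte markers summed to 2.25 to 3.10 per 10000 in the Paneth-marker cells at 8 weeks and 6.95 to 19.6 at 5 days, and goblet markers to 305 to 362 and 102 to 322.

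**Figure D3:**
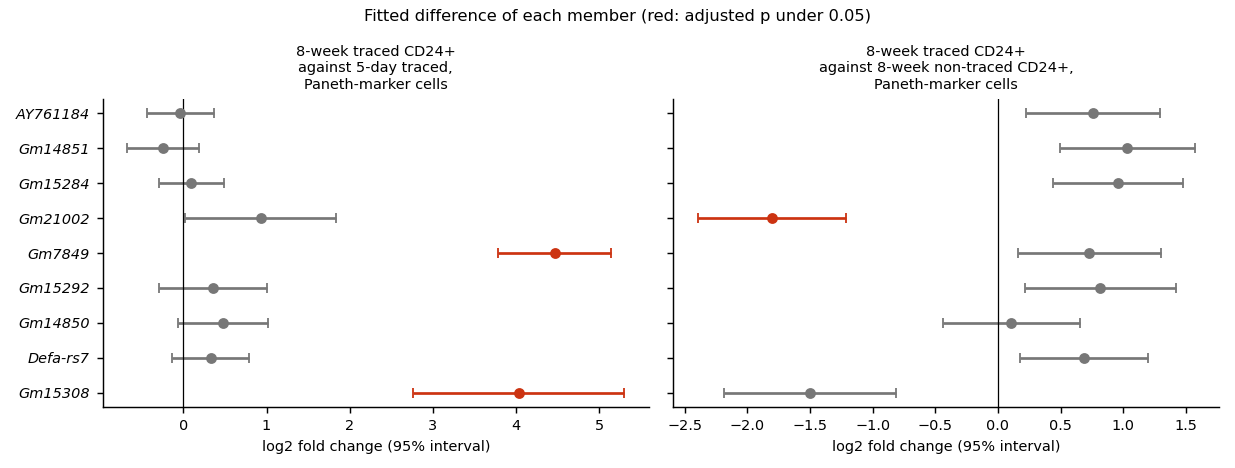
Fitted log2 fold change of each gene with its 95% interval in Paneth-marker cells, for 8-week traced CD24+ against 5-day traced cells (left) and against 8-week non-traced CD24+ cells (right), with genes past an adjusted p of 0.05 in red. Gm7849 (4.47) and Gm15308 (4.03), which entered the test through their 8-week libraries, stand apart on the left, and Gm21002 (-1.80), chosen with this contrast known, on the right.

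The start regions of Gm7849 and Gm14851 are shown because the genes are close copies with different levels at 5 days, at most 1.71 per 10000 for Gm7849 and at least 408 for Gm14851 in Paneth-marker cells. RefSeq (GRCm38.p6) gives promoter windows, 250 bases before to 50 after the start, for 6 of the 9 genes. Those of Gm7849 (chr8:21456468-21456767, minus strand) and Gm14851 (chr8:21096001-21096300, minus strand) are identical at 97.3% of 300 bases, and the 8 that differ are in capitals.
Gm7849: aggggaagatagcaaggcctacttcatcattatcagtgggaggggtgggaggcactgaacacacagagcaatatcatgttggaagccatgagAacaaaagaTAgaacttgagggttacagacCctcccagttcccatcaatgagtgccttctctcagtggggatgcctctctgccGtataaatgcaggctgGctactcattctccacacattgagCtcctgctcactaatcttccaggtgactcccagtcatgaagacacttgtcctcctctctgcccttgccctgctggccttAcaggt
Gm14851: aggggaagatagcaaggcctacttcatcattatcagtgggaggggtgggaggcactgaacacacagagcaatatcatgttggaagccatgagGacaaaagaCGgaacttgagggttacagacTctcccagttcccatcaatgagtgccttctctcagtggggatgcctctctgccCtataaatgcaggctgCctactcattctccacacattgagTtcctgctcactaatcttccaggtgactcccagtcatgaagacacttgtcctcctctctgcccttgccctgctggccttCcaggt
The motif CTTTGAT, a core read by the Wnt-pathway TCF factors, was found on either strand in the windows of Gm15284, Gm14850, Defa-rs7 and Gm15308, 4 of the 6, and in 3.73% of 32851 promoter windows. The related CTTTGAA was in 0 of the 6 and in 5.14% of all windows. Neither was in the windows of Gm7849 or Gm14851. The 6 windows belong to related genes and are not independent, so counts among them cannot be read against the share of all windows. Those of Defa-rs7 and Gm15284 are 91.4% identical, and those of Gm15308 and Gm14850 90.1%.

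At 3 weeks the genes were nearly absent from the sorted cells. In the 62 kept cells of the 3-week traced CD24+ library Gm15284 stood at 0.647 per 10000 (95% exact Poisson interval 0.431 to 0.933) and AY761184 at 0.344 (0.193 to 0.567). Gm7849, Gm15292, Gm14850 and Gm15308 had 0 transcripts, which allows a level of up to 0.0686. In the 50 cells of the 3-week library labelled non-traced, AY761184 stood at 0.135 (0.0440 to 0.316) and 6 of the 9 genes at 0, which allows up to 0.0810. Intervals and limits cover counting error only. The 2 Paneth-marker cells of the 3-week traced library had 6.11 per 10000 of the 9 genes together and a goblet marker sum of 1623, against 124 for the Paneth markers.

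**Figure D4:**
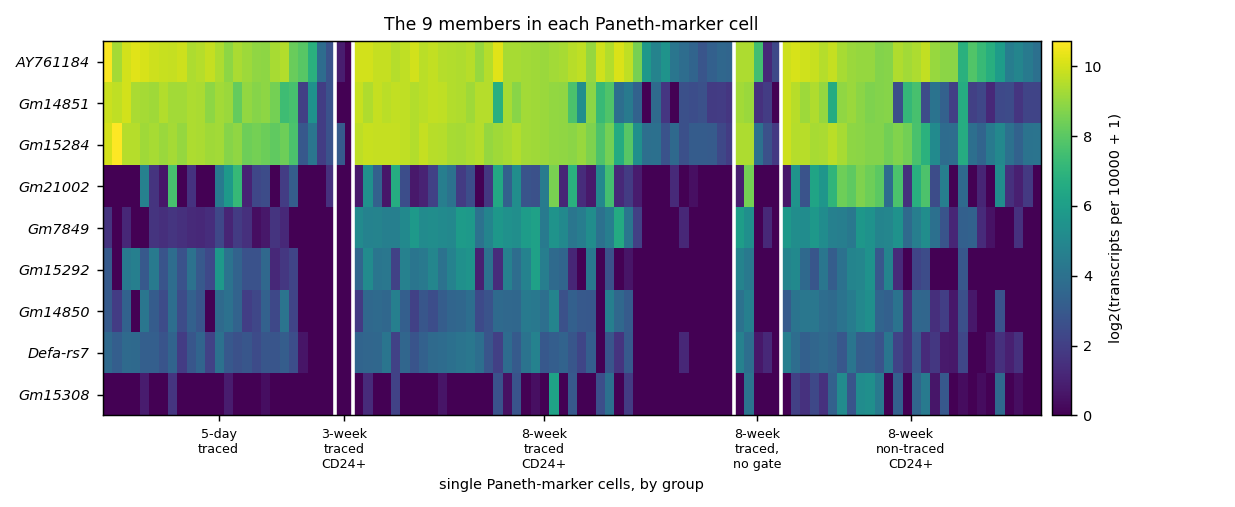
Each column is 1 of the 101 Paneth-marker cells and each row 1 of the 9 genes, coloured by log2(transcripts per 10000 + 1), with cells grouped by library type and sorted by AY761184, Gm14851 and Gm15284 together. Most cells carry the 3 abundant genes together, and the cells at the right end of each group carry little of any of the 9.

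Within single Paneth-marker cells the genes were mostly on together, where on means at least 1 transcript. AY761184 and Gm15284 were each on in 100 of 101 cells and Gm14851 in 96, followed by Defa-rs7 (80), Gm7849 (76), Gm21002 (72), Gm14850 (72), Gm15292 (65) and Gm15308 (36). The median cell had 8 of the 9 genes on, 29 cells had all 9 and 1 had none. With each cell thinned to 3000 transcripts the median was 7, and 14 cells had all 9. By group, all 9 were on in 11 of 41 8-week traced CD24+ cells, 14 of 28 8-week non-traced CD24+ cells and 3 of 25 5-day cells, and after thinning in 4, 9 and 0 of them.
Shares of cells with a transcript have to be read against other cells, where the abundant genes were on as well: AY761184 in 86.3%, Gm14851 in 75.6% and Gm15284 in 74.5% of 791 cells with a median of 8203 transcripts, against 16851 in Paneth-marker cells. The level there was low, at 0.984% to 3.50% of the Paneth-marker level of AY761184 in the 5-day and 8-week libraries. Gm21002 was on in 13.1% of other cells, Gm7849 in 4.30% and the remaining 4 genes in 1.14% to 1.90%.

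**Figure D5:**
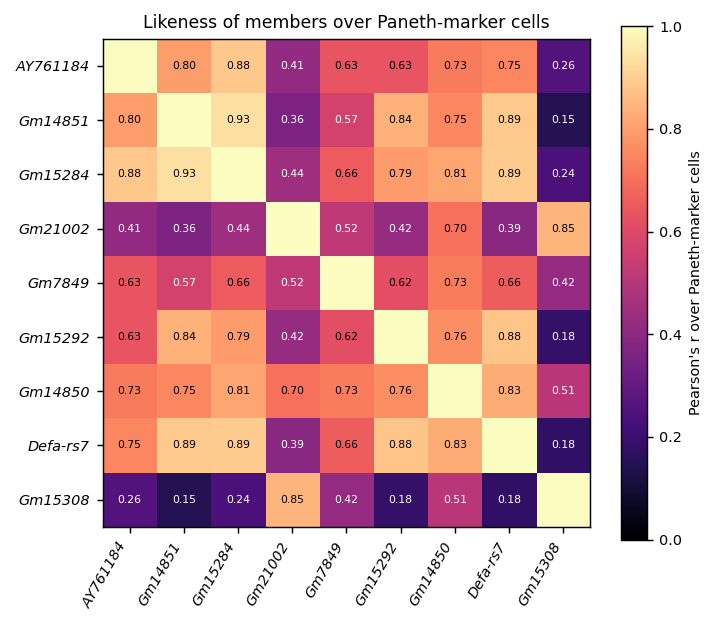
Pearson's r between each pair of genes over 101 Paneth-marker cells, on log2(transcripts per 10000 + 1), from 0 (dark) to 1 (light). Gm21002 and Gm15308, both with 0% unique windows of 50 bases, form a pair at 0.85, and Gm15308 has r of 0.15 to 0.26 with the 3 abundant genes.

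Over the 101 cells the closest pair was Gm14851 and Gm15284, with Pearson's r = 0.93 on log2(level per 10000 + 1), ahead of Gm15284 with Defa-rs7 (0.89), Gm14851 with Defa-rs7 (0.89), AY761184 with Gm15284 (0.88) and Gm15292 with Defa-rs7 (0.88). These values describe cells that share libraries and depth and carry no p. Among the 101 cells are 21 low in the 3 abundant genes, whose goblet markers summed to 763 per 10000 against 257 in the other 80, and cells tied at the ceiling. The part of these cells in r was not tested. Gm15292 was not on without Defa-rs7 in any cell: both were on in 65 cells and Defa-rs7 alone in 15, while after thinning to 3000 transcripts 4 cells had Gm15292 alone. Gm15308 was likewise on with Gm21002 in all of its 36 cells, with Gm21002 alone in another 36 (r = 0.85), and 1 cell had Gm15308 alone after thinning. Both genes have 0% unique windows of 50 bases, and the part of reads divided between copies in this pattern was not tested. Gm15308 was least like the abundant genes (r = 0.15 with Gm14851, 0.24 with Gm15284 and 0.26 with AY761184), and Gm21002 stood at 0.36 to 0.44 with them.
Among the 8401 genes in at least 10% of these cells that are not among the 9, those most like each were mainly other defensin transcripts. Gm21002 and Gm15308 were nearest to Defa20 (0.93 and 0.85), then Gm15315 (0.79 and 0.70) and Gm10104 (0.71 and 0.64). Gm14850 was nearest to Gm21498 (0.97), Defa5 (0.91) and Defa26 (0.86), and Defa-rs7 to Defa23 (0.91), Defa26 (0.86) and Defa3 (0.86). Gm15292 was nearest to Defa23 (0.90), the lipase-related Pnliprp2 (0.83) and Defa26 (0.82), and Gm7849 had Gm10104 (0.80) and Gm21498 (0.75) among its 3 nearest. AY761184 was nearest to Defa3 (0.88), the colipase Clps (0.88) and Defa26 (0.88), Gm15284 to Defa3 (0.91), Clps (0.89) and Defa26 (0.88), and Gm14851 to Pnliprp2 (0.88), Defa23 (0.86) and Defa3 (0.83). Pairs with the same coding sequence (Gm15308 with Defa20, Defa-rs7 with Defa23) cannot be told apart by their coding bases. Gm21002 and Gm14850 too have 0% unique windows of 50 bases. Gm14850 and Gm21498 were treated as near-identical where such genes were summed.
Genes among those most like Gm21002 and Gm7849 can be set beside them. Defa20 averaged 61.6 per 10000 in 8-week traced and 150 in 8-week non-traced Paneth-marker cells (-1.13, adjusted p = 0.349), and 10.04 at 5 days. Gm10104 averaged 8.52 in 8-week traced cells, against 9.48 in non-traced cells and 1.10 at 5 days, with a log2 fold change of 2.87 between 8 weeks and 5 days (edgeR adjusted p = 1.08e-05). The 8-week traced libraries are shared between these comparisons.

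Some Paneth-marker cells held little of the 3 abundant genes. Of the 101 cells, 21 had AY761184, Gm14851 and Gm15284 below 100 per 10000 together: 2 in the 5-day libraries, 2 at 3 weeks, 5, 2 and 3 in the 8-week traced CD24+ libraries, 2 in the ungated one, and 3 and 2 in the non-traced ones. These cells had a median of 8925 transcripts, against 18080 in the other 80. Their goblet markers summed to 763 per 10000 and those of the other 80 to 257. Their Paneth markers summed to 293.5 against 1152, with Lyz1 at 116 against 527, Itln1 at 134 against 440 and Ang4 at 7.85 against 135. Pnliprp2 (0.203 against 12.1) and Habp2 (1.83 against 3.48) were lower as well, and Mmp7 stood at 33.6 against 33.3. The part of goblet-type cells among these 21 cells was not tested. With cells of at least 100 per 10000 of the 3 abundant genes alone, an alternative chosen after the values were seen and read for the other 6 genes, Gm7849 still passed between 8 weeks and 5 days (log2 fold change 5.05, adjusted p = 1.96e-06), and Gm21002 was at -1.54 between traced and non-traced cells (adjusted p = 0.0489). Gm14850 (1.04, adjusted p = 0.0107) and Gm21002 (1.46, adjusted p = 0.0275) were then also called higher at 8 weeks than at 5 days.
Conversely, 4 cells outside the Paneth-marker cells had at least 100 per 10000 of the 3 abundant genes.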

How the data were processed

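Per the labels' protocols, sorted cells were processed by CEL-seq. BWA 0.6.2-r126 and mm10 are named in the submitters' processing notes. Gene models, read filters and the handling of reads that match several copies are not given in the sources used here. Values deposited by the authors are expected counts for each gene in each cell, not scaled between cells. From the values, each is a whole number of 256 molecular barcodes corrected for collisions, with a ceiling of 1597. A combined table of the same unit, matched to groups by its set names, served only to compare group totals.

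The 9 genes, the gene lists and the tests were chosen with earlier results of these data known. Cells with at least 3000 transcripts without spike-in were kept. Levels are sums over cells per 10000 transcripts. The library was the replicate: counts summed over cells and rounded were tested with edgeR 4.0.16 in R 4.3.3 (quasi-likelihood F test, TMM, filterByExpr, Benjamini-Hochberg over all genes tested, threshold 0.05), and all 9 genes passed the filter in each of 3 comparisons. The code was tested on simulated data. DESeq2 1.42.0 and limma 3.58.1 served as alternatives, with other filters, library sizes, cell limits, a replicate block and each replicate left out. Confidence intervals are at 95%. Genes named beside the 9 were, for each, the 3 with the highest r over Paneth-marker cells, and the 4 named alpha-defensins with the highest level there; Defa20, Defa23 and Defa3 also appear as calls of their list. One gene that this rule names is not reported here. Likeness used genes detected in at least 10% of those cells. Coding sequences came from GENCODE M21 on mm10 and promoters from RefSeq on GRCm38.p6, which also matched 8 of the 9 symbols. Each library holds 421675 to 1385266 transcripts, which limits genes near 1 transcript per cell.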

Additional observations from a re-analysis of the deposited data

Results flagged for a closer look

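Among the 5 libraries of 5 days, 27 sets of values (9 genes in all kept, Paneth-marker and other cells) were checked for a library far from the rest, where chance alone flags about 1 in 20. In all kept cells Gm15292 stood at 3.55 per 10000 in replicate 3, against 1.14 in the next highest library, a gap of 0.743 of the whole range. A single cell held 59.4% of those transcripts, and without it, a cell with another of the genes at the ceiling, the level was 1.498. In the other cells Defa-rs7 stood at 0.0460 per 10000 in replicate 2 and at 0 in the remaining 4 libraries, a value that rests on 3.01 transcripts in 2 cells.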

How the results depend on the processing

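Replicate numbers are not taken to pair libraries, as the deviations of equal numbers correlated at 0.09 and 0.13 over all cells, 0.24 and 0.14 in Paneth-marker cells of traced and non-traced libraries and 0.03 and 0.01 between 8 weeks and 5 days, with 2 pairs each. The replicate block gave 485, 37 and 464 calls in these 3 comparisons. A batch block was not run: the combined table has 3 sets of 8-week traced CD24+ cells, 2 of them with II in the name, and 2 of non-traced cells, 1 of them so, a mark that may stand for a second round, but no source says so or ties sets to libraries, so a batch within both groups was not tested. Over all cells DESeq2 called 200 genes and no filter on low counts 811, against 371, and leaving out 1 library gave 55 to 344 (non-traced replicate 1 left out 55, non-traced replicate 2 153, traced replicate 1 148). In Paneth-marker cells of traced against non-traced libraries, 1 gene became 11 with DESeq2, 30 without a filter, 0 with whole molecular barcodes, 2 at 50 per 10000, 12 with limma on per-cell levels, and 0 to 43 with 1 library left out (traced replicate 1 left out 4, traced replicate 3 0, non-traced replicate 1 34, non-traced replicate 2 43). Between 8 weeks and 5 days DESeq2 called 310 of 510, and leaving out 1 library gave 340 to 505. Where a group was left with 1 library, it is assumed to vary like the others. Of 452 log2 fold changes of the 9 genes under alternatives, 374 kept direction and side of the threshold, 40 passed it newly, 3 lost it (all of Gm21002 in Paneth-marker cells, given above) and 35 changed sign, all of genes not called in the reported fit.

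Over all cells these were, with the replicate block, AY761184 -0.39, Gm14851 -0.086, Gm15284 -0.17, Gm7849 -0.42 and Gm15292 -0.14, AY761184 -0.10 with whole barcodes, Defa-rs7 0.029 with near-identical genes summed. With 1 library left out the ranges were -0.36 to 0.33 for AY761184, -0.10 to 0.56 for Gm15284, -0.27 to 0.43 for Gm7849, -0.42 to 0.62 for Gm15292 and -0.35 to 0.24 for Defa-rs7. In Paneth-marker cells of traced against non-traced libraries Gm14850 was -0.16 at 50 per 10000, -0.066 with limma and -0.083 to 0.35 with 1 library left out, and AY761184 -0.015 with limma. Between 8 weeks and 5 days AY761184 was 0.11 without a filter, 0.075 and 0.14 at 50 and 200 per 10000, 0.0021 with library sizes without Paneth genes, 0.024 with the replicate block and -0.12 to 0.10 with 1 library left out. Gm15284 was -0.22 with whole barcodes, -0.71 with limma (adjusted p = 0.0277) and -0.0062 to 0.17 with 1 left out, Gm15292 -0.16 and Defa-rs7 -0.22 with limma, and Gm14851 0.075 without the 2 cells of each library highest in Gm21002. The cause was not tested. Shares of cells fell when thinned, Gm21002 to 48.5% and Gm7849 to 57.4% of Paneth-marker cells. Depth limits Gm15308, with 0 to 4.02 transcripts per 5-day library.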
